A study of Mus musculus with 4 samples.

Results

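The cells described here are regulatory T cells from MC38 tumours, which grow from a mouse colon adenocarcinoma line. They were taken from single-cell RNA libraries of tumour immune cells enriched on CD45 beads, 2 libraries from Park2-/- mice (KO) and 2 from wild-type mice (WT). A barcode was counted as a regulatory T cell when it had at least 200 genes, at most 20% mitochondrial UMIs (unique molecular identifiers, 1 per captured RNA), at least 2 UMIs of the CD3 genes Cd3d, Cd3e and Cd3g together, and at least 1 UMI of Foxp3. It also had to have no UMI of Cd8a or Cd8b1, which mark CD8 T cells, and none of Csf1r or Adgre1, which mark macrophages. This gave 450 cells of 47276 barcodes, with 147 and 106 cells in KO 1 and KO 2 and 89 and 108 cells in WT 1 and WT 2. All groups share the tumour line, the digestion and the bead enrichment, and the sources used here give no strain, no age and no number of animals per library. A p-value here thus sets a difference against the spread of libraries and not of known animals, and part of that spread may be technical. In the comparison of gates within libraries, given below, what both gates of a library share is taken out.

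Regulatory T cells restrain other lymphocytes and depend on the transcription factor Foxp3. They bind interleukin 2 through the high-affinity receptor chain encoded by Il2ra (CD25), and many carry Ikzf2 (Helios), a zinc-finger factor, and Tnfrsf4 (OX40), a costimulatory receptor. In tumours they are known for an activated state and for molecules that limit T cell responses, such as Ctla4, which competes for costimulatory ligands.

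The label was checked against its markers. Foxp3 chose the cells, so its level is a description: 672 and 605 CPM (UMI counts scaled to a common total) in KO regulatory T cells and 692 and 540.1 CPM in WT regulatory T cells. Of the 3 markers that the rule did not use, at least 1 had a UMI in 99.3% and 99.1% of KO cells and in 98.9% and 99.1% of WT cells. However, Tnfrsf4 alone had a UMI in 79.0% and 74.5% of KO and 67.7% and 71.8% of WT conventional CD4 T cells (gate given below). Having at least 1 of these markers thus does not separate regulatory from conventional CD4 T cells. In barcodes gated as macrophages (Csf1r and Adgre1 present, no CD3 UMI), Foxp3 had a UMI in 0.354% and 0.309% of KO and 0.259% and 0.196% of WT barcodes. The cells were shallow, with medians of 2575 and 3292.5 UMIs in KO and 3148 and 3024 in WT, and their summed counts were 498550 and 490934 UMIs in KO and 382980 and 486935 UMIs in WT. At the edge of the rule, 51 and 32 KO cells and 19 and 44 WT cells had exactly 1 Foxp3 UMI. Just outside it, 25 and 24 KO and 6 and 13 WT barcodes differed only by having 1 CD3 UMI, and 53 and 26 KO and 14 and 38 WT barcodes by a Csf1r or Adgre1 UMI. Pairs of libraries shared 22 to 51 barcode sequences, none of them of a regulatory T cell in both.

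RNA of macrophages was present in the regulatory T cell sums. The 3 complement genes C1qa, C1qb and C1qc, which macrophages make, stood at 10.7% and 7.46% of their level over all kept barcodes in KO regulatory T cells and at 4.13% and 6.05% in WT regulatory T cells. The list of 18 macrophage or monocyte markers summed to 5839 and 3127 CPM in KO and 1548 and 2659 CPM in WT, with Csf1r and Adgre1 at 0 by the rule. Of single macrophage genes, Lyz2 had a UMI in 147 of 147 and 105 of 106 KO cells and in 77 of 89 and 99 of 108 WT cells, and C1qa in 63.9% and 53.8% of KO and 28.1% and 36.1% of WT cells. No UMI of C1qa, C1qb, C1qc, Cd79a, Ncr1 or S100a8 was present in 10 and 15 KO cells and in 44 and 30 WT cells. CD8 T cell markers were at 0 by the rule as well. The 7 B cell markers summed to 395 and 334 CPM in KO and 415 and 320.4 CPM in WT, with Ms4a1 at 0. Of the NK cell markers Eomes and Klra8 were at 0, while that list summed to 371.1 and 191.5 CPM in KO and 99.2 and 154.0 CPM in WT.

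The regulatory T cell share depended on the denominator. Of gated T cells (at least 2 CD3 UMIs, no macrophage gene), they were 9.87% and 14.8% in KO and 44.3% and 35.4% in WT. The means were 12.3 ± 3.46% in KO and 39.8 ± 6.27% in WT (SD, n = 2 libraries each), and the exact two-sided permutation test gave p = 0.333, the smallest p that 2 against 2 libraries can give. Both KO libraries lay below both WT libraries. Of the 44184 barcodes that passed the filters, regulatory T cells were 0.854% and 1.12% of them in KO and 1.03% and 1.23% in WT, and the groups overlapped (means 0.985 ± 0.185% in KO and 1.13 ± 0.140% in WT, exact permutation p = 0.667). Gated T cells as a whole were 8.65% and 7.56% of barcodes in KO and 2.32% and 3.46% in WT. CD8 T cells were 60.5% and 52.5% of gated T cells in KO against 12.9% and 26.9% in WT, and conventional CD4 T cells 5.44% and 7.10% against 15.4% and 12.8%. Kept barcodes were shallower in KO, with medians of 6052 and 8308 UMIs in KO and 9905.5 and 12133 UMIs in WT. Barcodes of at least 2000 UMIs were also thinned to that number and the shallower ones left out, which kept 13109 of 17207 and 7463 of 9498 barcodes in KO and 7305 of 8664 and 7964 of 8815 in WT. There the regulatory T cell share of gated T cells was 11.1% in KO and 31.8% in WT (means), and the share of kept barcodes 0.897% in KO and 0.791% in WT. A share is relative: fewer regulatory T cells and more of the others cannot be told apart from it.

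**Figure D1:**
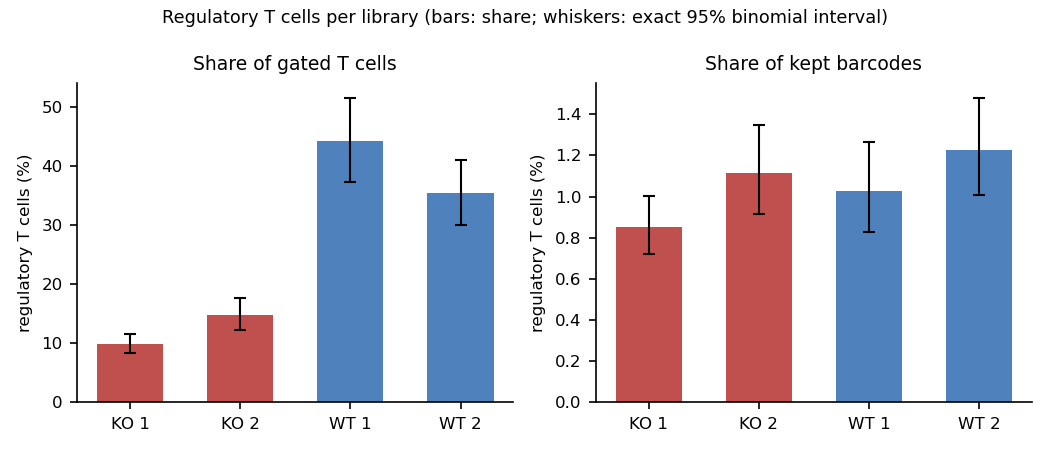
Regulatory T cells per library as a percentage of gated T cells (left) and of kept barcodes (right), KO libraries in red and WT in blue; bars are shares and whiskers exact 95% binomial intervals. Both KO libraries lie below both WT libraries on the left (9.87% and 14.8% against 44.3% and 35.4%), whereas on the right the groups overlap.

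To see what sets regulatory T cells apart, their summed counts were compared with those of conventional CD4 T cells from the same 4 libraries (at least 1 Cd4 UMI, no Foxp3 UMI, other limits as above; 81 and 51 cells in KO, 31 and 39 in WT). Of 5504 genes tested, 213 (3.87%) were higher and 273 (4.96%) lower in regulatory T cells, by edgeR's quasi-likelihood test with library as a block and a Benjamini-Hochberg adjusted p under 0.05. With scaling to total counts in place of TMM the split was 260 higher and 216 lower (54.6% higher, against 43.8%). Cd4 and the 8 genes of the regulatory T cell rule were left out of the test. The conventional gate can hold regulatory T cells whose Foxp3 was not captured: 23.5% and 41.2% of its KO cells and 48.4% and 35.9% of its WT cells had an Ikzf2 UMI. It held macrophage RNA as well. There C1qa, C1qb and C1qc stood at 13.5% and 9.29% of their level over all kept barcodes in KO. In WT they stood at 4.77% and 6.70%. Each value was above that of the regulatory T cells of the same library.

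The genes that define regulatory T cells were higher. Of 12 members of the identity list that were tested, 10 rose and 1 fell, with a median log2 change of 0.97 against -0.01 over all genes. Ikzf2 stood at 1374, 1314, 1240.3 and 1115 CPM in regulatory T cells of KO 1, KO 2, WT 1 and WT 2 (the order of every 4 values here), against 280.3, 431, 556 and 384 CPM in conventional CD4 T cells, a log2 change of 1.58 ± 0.14 (SE; edgeR adjusted p = 5.1e-12). The sums of the gates did not overlap. Il2ra was at 704, 711, 851 and 493 CPM in regulatory against 158, 152, 333 and 311 CPM in conventional cells (1.51 ± 0.21, edgeR adjusted p = 0.000186), and again every regulatory T cell sum lay above every conventional one. Tnfrsf4 had 2429, 2888, 2159 and 2031 CPM in regulatory against 1089.5, 1644, 976 and 1470.5 CPM in conventional cells (0.82 ± 0.10, edgeR adjusted p = 3.3e-09). Lrrc32 (GARP), which holds latent TGF-beta on the regulatory T cell surface, gave the largest change of the list: 132, 93.7, 49.6 and 53.4 CPM in regulatory against 11.8, 18.2, 7.94 and 14.5 CPM in conventional cells, log2 2.64 ± 0.41 (edgeR adjusted p = 1.4e-06). Itgae (CD103), an integrin chain that binds E-cadherin, rose by 1.70 log2 units, Izumo1r (folate receptor 4) by 1.08, Ctla4 by 1.04, Ikzf4 (Eos) by 0.90, Tnfrsf18 (GITR) by 0.73 and Capg by 0.61. The call for Ikzf4 ended without KO 1, KO 2 or WT 2 (adjusted p = 0.137, 0.0520 and 0.291). The exception was Nrp1 (neuropilin 1), a receptor often used to mark regulatory T cells of thymic origin, which fell by 1.73 log2 units; its CPM was 32.1, 26.5, 57.4 and 37.0 in regulatory T cells against 118, 133, 111 and 101 in conventional CD4 T cells.

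**Figure D2:**
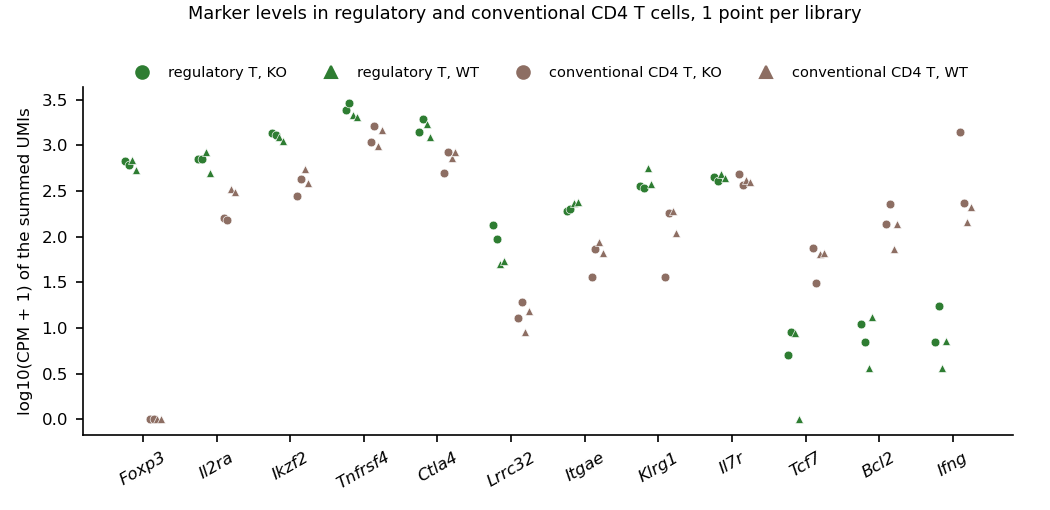
Levels of 12 genes as log10(CPM + 1) of the summed UMIs, 1 point per library; regulatory T cells in green and conventional CD4 T cells in brown, circles for KO and triangles for WT. Foxp3 differs by the rule; Lrrc32, Itgae and Ikzf2 lie higher in every regulatory T cell sum, Il7r overlaps, and Tcf7, Bcl2 and Ifng lie lower.

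Of 17 tested genes of activated tumour regulatory T cells 7 rose and 1 fell (median log2 change 0.47). Klrg1, an inhibitory receptor of terminally differentiated effector cells, rose by 1.69 ± 0.28 log2 units (edgeR adjusted p = 0.00277), and its CPM was 357, 342, 559 and 376 in regulatory T cells against 35.5, 182, 191 and 109 in conventional ones. Tnfrsf9 (4-1BB), a costimulatory receptor induced by activation, rose by 1.03 ± 0.12, and Il1rl1 (ST2), the receptor of interleukin 33, by 1.01 ± 0.33. The transcription factors Prdm1 (Blimp-1) and Maf rose by 0.87 and 0.71, the costimulator Icos by 0.47 and the adaptor Samsn1 by 0.73. The calls for Il1rl1 (without KO 1, adjusted p = 0.406), Icos and Prdm1 (without KO 2, 0.120 and 0.173) each ended when a library was left out. Pdcd1 (PD-1), an inhibitory receptor, fell by 1.71 (edgeR adjusted p = 4.2e-09), with 76.2, 81.5, 57.4 and 47.2 CPM in regulatory T cells against 284, 315, 103 and 116 CPM in conventional ones, so the lowest conventional sum was above the highest regulatory one. Ccr8, a chemokine receptor of tumour regulatory T cells, was too low to be tested, at 14.0, 20.4, 13.1 and 8.21 CPM.

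Of 14 mediators of suppression that were tested, 6 rose and none fell, where 3.87% of all tested genes rose. Gzmb (granzyme B), a cytotoxic protease, stood at 1420.1, 2261, 1306 and 1592 CPM in regulatory T cells against 319.7, 813, 516 and 739 CPM in conventional CD4 T cells, log2 1.44 ± 0.12 (edgeR adjusted p = 1.4e-12). Areg (amphiregulin), a ligand of the EGF receptor linked to tissue repair, had 596, 1039, 749 and 240.3 CPM in regulatory against 142, 115, 286 and 36.2 CPM in conventional cells, log2 2.14 ± 0.25 (edgeR adjusted p = 0.00012); the gates overlapped, since the regulatory sum of WT 2 lay below the conventional sum of WT 1, although each library's regulatory sum exceeded its own conventional one. Itgb8, the integrin chain that releases active TGF-beta from its latent form, rose by 1.88 ± 0.35, and Lgals1 (galectin 1) by 0.64 ± 0.09. Lrrc32 and Ctla4, given above, complete the 6. Of these 6, only Lrrc32 kept its call under every alternative in which it was tested. Among barcodes with no UMI of other cell types' markers the calls for Gzmb, Areg, Lgals1 and Ctla4 ended. Those for Gzmb and Areg also ended without the library block, and that for Itgb8 with DESeq2 (adjusted p = 0.0507). The gene of the cytokine itself, Tgfb1, did not pass (-0.30, edgeR adjusted p = 0.315), nor did Il10 (0.28, edgeR adjusted p = 0.918) or Ebi3 (-0.08, edgeR adjusted p = 0.911). Il12a, the partner of Ebi3 in interleukin 35, had no UMI in either gate. The remaining mediators Prf1, Fgl2, Entpd1, Nt5e and Lag3 did not pass either.

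Interferon-induced genes were higher in regulatory T cells than in conventional CD4 T cells. Of 21 tested members of the interferon gamma list, 6 rose and none fell, with a median log2 change of 0.44. Gbp3, a guanylate-binding protein of cell-autonomous defence, was at 130.4, 128, 115 and 94.5 CPM in regulatory against 47.4, 42.5, 23.8 and 29.0 CPM in conventional cells (1.58 ± 0.29, edgeR adjusted p = 3.1e-05). Igtp, an immunity-related GTPase, was at 325, 479, 298 and 281 CPM in regulatory against 169.7, 224, 103 and 174 CPM in conventional cells (0.96 ± 0.17, edgeR adjusted p = 2.6e-05), and Gbp7 at 277, 275, 272 and 251 CPM in regulatory against 146, 133, 103 and 152 CPM in conventional cells (0.92 ± 0.19, edgeR adjusted p = 0.000196). For these 3 genes every regulatory T cell sum was above every conventional one. Iigp1, another such GTPase, rose by 1.71 ± 0.25, and the immunoproteasome subunit Psmb9 by 0.44 ± 0.14, whose call ended without KO 1, KO 2 or WT 1 (adjusted p = 0.0689, 0.127 and 0.163). The Gbp and Irg families hold similar genes, and the sources used here do not say how reads that match several members were counted. Of 9 tested members of the type I interferon list, Isg20 (1.16 ± 0.23) and Zbp1 (0.75 ± 0.23) rose, the second not without KO 1 (adjusted p = 0.501).

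The promoters of Gbp3, Igtp and Gbp7 are shown because these called genes hold matches to at least 1 of 2 DNA elements. Interferons are known to act through these elements. Psmb9, the other called gene of the list in the promoter table, held neither, and the remaining 2 called genes are not shown. Each line is the RefSeq promoter of build GRCm38.p6, from 250 bases before to 50 after the start of the gene, 5′ to 3′ on the gene's strand; capitals mark the interferon-stimulated response element (GAAA and GAAA with 2 free bases between them) and the gamma-activated site TTCNNNGAA, both searched on both strands, with overlapping matches counted. All 3 genes are on the plus strand, Gbp3 at chr3:142559794-142560093, Gbp7 at chr3:142530086-142530385 and Igtp at chr11:58199306-58199605.
Gbp3: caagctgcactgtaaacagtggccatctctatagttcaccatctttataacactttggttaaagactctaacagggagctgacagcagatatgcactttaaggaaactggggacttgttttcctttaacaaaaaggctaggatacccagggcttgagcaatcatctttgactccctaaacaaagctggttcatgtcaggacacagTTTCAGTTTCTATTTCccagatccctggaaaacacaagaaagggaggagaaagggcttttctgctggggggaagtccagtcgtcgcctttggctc
Gbp7: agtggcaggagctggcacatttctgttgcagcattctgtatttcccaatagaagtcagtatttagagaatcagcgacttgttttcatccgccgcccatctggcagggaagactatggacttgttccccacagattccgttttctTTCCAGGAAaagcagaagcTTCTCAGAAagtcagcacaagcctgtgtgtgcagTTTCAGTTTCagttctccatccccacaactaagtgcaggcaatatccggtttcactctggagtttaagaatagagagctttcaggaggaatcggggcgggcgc
Igtp: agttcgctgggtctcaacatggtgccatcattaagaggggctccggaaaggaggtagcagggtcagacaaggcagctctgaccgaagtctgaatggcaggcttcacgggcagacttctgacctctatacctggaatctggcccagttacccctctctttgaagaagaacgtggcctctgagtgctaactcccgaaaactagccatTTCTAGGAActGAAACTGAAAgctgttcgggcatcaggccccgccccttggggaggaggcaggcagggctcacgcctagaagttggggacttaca
Gbp3 has a second RefSeq start, whose promoter (chr3:142560106-142560405) held neither element and is not printed. The response element occurred 2 times in the printed Gbp3 promoter, where the matches overlap, and 1 time each in Gbp7 and Igtp. The gamma-activated site occurred 2 times in Gbp7, 1 time in Igtp and 0 times in Gbp3. Of the 4 called genes with a promoter to search, 3 held the response element and 2 the other site. Among the 32851 promoters of that length, 3.44% held the response element and 8.30% the gamma-activated site. Counted by gene, as for the list, 3.99% and 9.55% of 27025 genes held them in at least 1 promoter. Of the 22 genes on the interferon gamma list 14 had a promoter there, and 9 of these held the response element and 6 the other site. A match of letters is a description and not a site in use.

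Genes of antigen presentation and of the cell cycle were also higher. Of 16 tested genes of MHC class I presentation 7 rose and none fell: the peptide transporter Tap1 (0.48 ± 0.16), its partner Tapbp (0.59 ± 0.18), the proteasome activators Psme1 (0.44 ± 0.14) and Psme2 (0.57 ± 0.13), Psmb9, and the chaperones Calr (0.46 ± 0.15) and Pdia3 (0.46 ± 0.15). Of these, Psme2 alone kept its call whichever library was left out; without KO 1 the adjusted p was 0.187 for Tap1, 0.177 for Tapbp, 0.152 for Psme1, 0.150 for Calr and 0.150 for Pdia3. The class I heavy chains H2-K1 and H2-D1 did not pass (0.10 and 0.16, edgeR adjusted p = 0.533 and 0.279). Of 30 tested cell cycle genes 15 rose and none fell, with a median log2 change of 1.16. Of these 15 calls 9 ended when a library was left out. Without KO 2 they were Ccna2 (adjusted p = 0.145), Ccnb2 (0.0605), Kif11 (0.414), Mcm5 (0.337), Nusap1 (0.0505), Pclaf (0.0637), Rrm2 (0.392) and Tubb5 (0.126), and without KO 1 Tk1 (0.106) and Mcm5 (0.211). Kif11 also lost its call without WT 1 (0.0842) and Mcm5 without WT 2 (0.0691). Birc5 (survivin), a mitotic regulator, was at 84.2, 189, 175 and 107 CPM in regulatory T cells against 43.4, 12.1, 55.6 and 43.5 CPM in conventional ones (1.69 ± 0.30, edgeR adjusted p = 7.9e-05), and Mki67, the proliferation marker Ki-67, rose by 1.54 ± 0.23 but stood at -0.55 among barcodes with no UMI of other cell types' markers (10 and 15 KO and 44 and 30 WT regulatory T cells). Few cells carried these UMIs: Birc5 was seen in 45 of 450 regulatory and 11 of 202 conventional T cells, and 1 cell held 33.8% of the regulatory T cell UMIs of Ube2c. Leaving out the barcodes with the most UMIs took regulatory T cells from 147 to 146 in KO 1 and from 108 to 107 in WT 2. No conventional cell was lost. There the calls for Birc5, Ube2c, Kif11, Rrm2, Ccnb2, Mcm5 and Tubb5 ended, and the other cell cycle calls were kept. The call for Birc5 also ended with a Cd4 UMI required. In regulatory T cells Mki67 or Top2a had a UMI in 25.9% and 42.5% of KO and 30.3% and 34.3% of WT cells, or in 17.4% and 29.8% of KO and 22.1% and 25.5% of WT cells after thinning to 2000 UMIs, so the genotypes overlapped. In macrophage-gated barcodes the thinned shares were 11.4% and 13.4% in KO and 17.6% and 17.5% in WT.

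Genes of resting T cells and of trafficking followed. Of 9 tested genes of resting or central T cells 1 rose and 3 fell; those that fell were Lef1, Tcf7 and Bach2, transcription factors of resting T cells, with log2 changes of -1.13, -3.56 and -3.66; without KO 2 the calls for Lef1 and Bach2 ended (adjusted p = 0.107 and 0.130). Tcf7 (TCF1) was at 4.01, 8.15, 7.83 and 0 CPM in regulatory T cells against 75.0, 30.3, 63.5 and 65.2 CPM in conventional ones. The sums of the gates did not overlap. Bcl2, an inhibitor of apoptosis, fell by 4.18 ± 0.35 (edgeR adjusted p = 3.5e-15), with 10.0, 6.11, 2.61 and 12.3 CPM in regulatory against 138, 224, 71.4 and 138 CPM in conventional cells. Of 10 tested chemokine and migration receptors 2 rose and 1 fell: Ccr2, which guides cells to inflamed tissue, rose by 0.99 ± 0.15, and Cxcr6, a receptor of resident T cells, fell by 1.69 ± 0.19; Ccr1, Ccr7, Cxcr3, Cxcr4, S1pr1, S1pr4 and Gpr183 did not pass. Il7r, whose protein CD127 is classically low on regulatory T cells, did not pass (0.01 ± 0.14, edgeR adjusted p = 0.980).

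**Figure D3:**
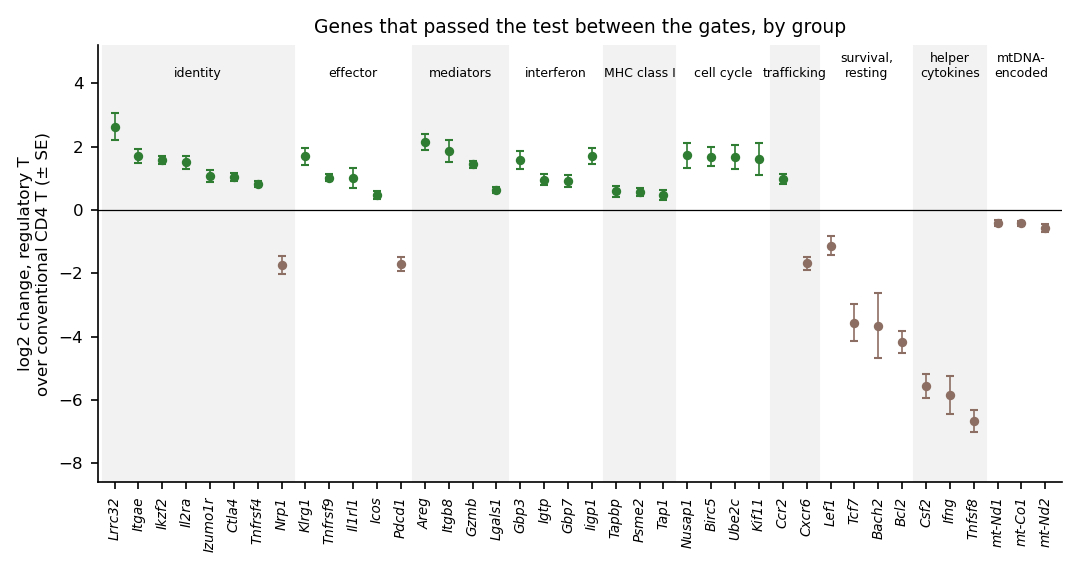
Log2 change of regulatory T cells over conventional CD4 T cells with its standard error, for genes that passed the test, grouped by function. Identity, effector, mediator, interferon, presentation and cell cycle genes lie above 0 apart from Nrp1 and Pdcd1, and Cxcr6, resting-state and survival genes, helper cytokines and mitochondrially encoded genes lie below.

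Several cytokines that helper T cells make fell, while the lists they belong to went both ways. Of 10 tested Th1-type genes 3 rose and 3 fell (Ifng, Il18r1 and Stat4), and of 7 tested Th2-type and tissue repair genes 3 rose and 1 fell (Il13). Markers of other cells fell beside them: Klrk1, an activating receptor of NK and CD8 T cells, changed by -3.64 ± 0.38 log2 units and Ly6c2, a surface protein of monocytes and some T cells, by -4.09 ± 0.39. The 8 NK cell markers summed to 371, 191, 99.2 and 154 CPM in regulatory against 876, 491, 429 and 123 CPM in conventional cells. The 7 neutrophil markers summed to 34.1, 24.4, 39.2 and 34.9 CPM in regulatory against 1066, 170, 0 and 43.5 CPM in conventional cells. The 9 dendritic cell markers summed to 24.1, 20.4, 44.4 and 61.6 CPM in regulatory against 15.8, 24.3, 468 and 36.2 CPM in conventional cells. The part of these other cell types in the cytokine values and in the genes called lower was not tested. Ifng stood at 6.02, 16.3, 2.61 and 6.16 CPM in regulatory T cells and at 1393, 230.5, 143 and 210.1 CPM in conventional CD4 T cells (log2 -5.85 ± 0.61, edgeR adjusted p = 0.00486). Csf2 (GM-CSF) stood at 6.02, 2.04, 5.22 and 2.05 CPM in regulatory and 347, 230.5, 47.6 and 94.2 CPM in conventional cells (log2 -5.56 ± 0.38, edgeR adjusted p = 1.8e-19), and Tnfsf8 (CD30 ligand) at 4.01, 0, 0 and 6.16 CPM in regulatory and 233, 249, 405 and 333 CPM in conventional cells (log2 -6.67 ± 0.35, edgeR adjusted p = 4.9e-24). In all 3 the lowest conventional sum exceeded the highest regulatory one. Il21 and Il13 had no UMI in the 1859399 UMIs of regulatory T cells, against 27 and 24 UMIs in 682220 UMIs of conventional ones, so they were at least 24.5-fold and 21.8-fold lower (against a floor of 3 counts over the gate). Both came from 6 conventional cells each. The same bound of 21.8-fold held for Ehd3, a membrane trafficking gene seen in 20 conventional cells. The filter for tested genes can keep a gene by the counts of 1 gate alone, as it did for Il21, Il13 and Ehd3. Their calls as lower, with that of Il13 in the Th2-type list, are thus descriptions. Btg2, an antiproliferative gene that digestion can induce, fell by 2.14 ± 0.17 (edgeR adjusted p = 1.3e-16).

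The highest fold changes upward rested on few cells. Sparc and Cald1, a matrix protein and an actin-binding protein not typical of T cells, rose by 4.65 ± 0.66 and 6.32 ± 1.41 log2 units, but 7 and 6 of 450 regulatory T cells carried them, and 1 cell held 77.3% and 49.1% of the UMIs. Their calls ended without KO 1 (adjusted p = 0.536 and 0.235) and with DESeq2 (0.902 and 0.882). Broader rises were those of Rapsn (2.18 ± 0.41, seen in 92 cells), Phgdh, the first enzyme of serine synthesis (2.08 ± 0.30, 106 cells), Ttn (2.04 ± 0.34, 85 cells) and the transcription factor Myb (2.15 ± 0.42, 81 cells). Ighm, the immunoglobulin mu chain, rose by 1.86 ± 0.21 and was seen in 217 cells, and Igkc, the immunoglobulin kappa chain, rose by 1.81 ± 0.41. These were the 2 B cell markers that could be tested; the list summed to 395, 334, 415 and 320.4 CPM in regulatory against 86.8, 78.9, 151 and 72.4 CPM in conventional cells. The call for Igkc ended with DESeq2 (adjusted p = 0.121), and that for Ighm among barcodes with no UMI of other cell types' markers (0.87, adjusted p = 0.363).

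Mitochondrially encoded genes were lower: 9 of 12 tested fell and none rose, with a median log2 change of -0.40. mt-Nd2, a subunit of complex I, changed by -0.57 ± 0.13, at 542, 666, 465 and 507 CPM in regulatory T cells against 793, 867, 619 and 789.6 CPM in conventional ones, and the gates overlapped, although each library's regulatory sum was below its own conventional one. Without KO 1 the calls for mt-Nd4, mt-Nd5 and mt-Cytb ended (adjusted p = 0.326, 0.370 and 0.0953). They also ended without WT 2 (edgeR adjusted p = 0.133, 0.0891 and 0.0883), and that for mt-Nd4 without WT 1 (0.109). With DESeq2 only the calls for mt-Nd2 and mt-Co1 were kept. Among barcodes with no UMI of other cell types' markers all 9 calls ended, although every change stayed negative. Of 32 nuclear genes of the respiratory chain 1 rose, Ndufa4 (0.59 ± 0.16), and none fell, where 3.87% of all tested genes rose and 4.96% fell. The call for Ndufa4 ended without KO 2 (edgeR adjusted p = 0.138) and with DESeq2 (0.181). The median mitochondrial share per cell was 1.93% and 1.96% in KO and 1.71% and 1.70% in WT regulatory T cells, against 2.34% and 2.19% in KO and 2.33% and 2.04% in WT conventional CD4 T cells. Of 17 genes of mitophagy, the removal of damaged mitochondria, none rose and 1 fell, where 4.96% of all tested genes fell. It was the autophagy protein Gabarapl2 (-0.49 ± 0.16, edgeR adjusted p = 0.0492). Its call ended whichever library was left out (edgeR adjusted p from 0.0794 without WT 2 to 0.265 without KO 2) and with DESeq2.

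The share of regulatory T cells with a UMI differed from gene to gene. A missing UMI does not show that a cell lacked the RNA. After thinning, Foxp3, required by the rule, was seen in 81.7% and 78.7% of KO and 77.9% and 68.1% of WT cells. The shares thus cannot tell variation among cells from missed UMIs. Tnfrsf9 was seen in 83.0% and 91.5% of KO and 83.1% and 88.9% of WT cells, but also in 40.0% and 44.3% of KO and 17.9% and 31.4% of WT macrophage-gated barcodes. After thinning its shares were 86.2% and 86.2% of KO and 74.0% and 84.0% of WT cells, against 19.0% and 17.4% of KO and 7.57% and 13.4% of WT macrophage-gated barcodes. Klrg1 had a UMI in 51.0% and 55.7% of KO and 62.9% and 55.6% of WT cells, against 0.0519% to 0.340% of macrophage-gated barcodes. Il10 was seen in 21.1% and 20.8% of KO and 18.0% and 14.8% of WT cells, against 1.33% and 1.27% of KO and 1.56% and 0.660% of WT macrophage-gated barcodes. The helper-lineage factor Gata3 was more often seen, with 25.2% and 39.6% of KO and 41.6% and 29.6% of WT cells, than Tbx21 (T-bet, 5.44% and 6.60% of KO and 16.9% and 13.0% of WT cells). In macrophage-gated barcodes Gata3 was seen in 0.590% and 0.278% in KO and 0.182% and 0.440% in WT. None of these shares was tested.

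Between KO and WT regulatory T cells 6084 genes were tested and 1 (0.0164%) passed, Ramp1, which was lower in KO. Ramp1 encodes a receptor activity-modifying protein that forms the receptor of the neuropeptide CGRP together with the product of Calcrl. The gene lies at chr1:91179822-91225196 (mm10). It stood at 48.1 and 38.7 CPM in KO and 217 and 160.2 CPM in WT regulatory T cells, from 24 and 19 UMIs in KO and 83 and 78 UMIs in WT. The groups did not overlap, and the log2 change was -2.09 ± 0.26 (SE, n = 2 libraries each; edgeR quasi-likelihood adjusted p = 0.0387). A Ramp1 UMI was present in 12.2% and 11.3% of KO and 32.6% and 31.5% of WT cells, or in 9.17% and 8.51% of KO and 23.4% and 21.3% of WT cells after thinning. Macrophage-gated barcodes had 8.75 and 7.92 CPM in KO and 22.9 and 26.5 CPM in WT, lower in KO as well. Calcrl had a UMI in 2.72% and 2.83% of KO and 2.25% and 2.78% of WT regulatory T cells, below its share in macrophage-gated barcodes. The call for Ramp1 ended without WT 1 (log2 -1.87, adjusted p = 0.991) and without WT 2 (-2.28, 0.865). By the same test 0 genes were called higher; at an unadjusted p under 0.05 there were 202 higher and 149 lower, and DESeq2 called Ccl2 and Ccl8 higher and Ramp1 and Penk lower.

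The genes with the next lowest p-values did not pass and are given as values. Penk, the precursor of the enkephalin opioid peptides, had 225 and 124 CPM in KO and 525 and 540.1 CPM in WT (-1.60 ± 0.23, edgeR adjusted p = 0.0784), and it came from 74 of 450 cells. H2-T10, a class Ib gene of the MHC that GENCODE annotates as a polymorphic pseudogene, had 138 and 95.7 CPM in KO and 28.7 and 24.6 CPM in WT (2.15 ± 0.33, edgeR adjusted p = 0.0835), with 35.1 and 18.8 CPM in KO and 2.78 and 4.30 CPM in WT in macrophage-gated barcodes. In conventional CD4 T cells H2-T10 had 142 and 78.9 CPM in KO and 23.8 and 43.5 CPM in WT. In CD8 T cells H2-T10 had 138 and 83.3 CPM in KO and 30.0 and 12.4 CPM in WT. Class Ib genes are similar in sequence, so its counts are uncertain. The chemokine Ccl2 had 311 and 147 CPM in KO and 31.3 and 45.2 CPM in WT (2.56, edgeR adjusted p = 0.0890), while macrophage-gated barcodes had 1663 and 2249.9 CPM in KO and 1371 and 1080.4 CPM in WT. Conventional CD4 T cells had 268 and 212 CPM of Ccl2 in KO and 71.4 and 57.95 CPM in WT. CD8 T cells had 173 and 158 CPM in KO and 60.0 and 60.0 CPM in WT. A single cell held 26.4% of the regulatory T cell UMIs of Ccl2. Ccl6, Ccl8, Wfdc17 and Metrnl followed, with log2 changes of 1.34, 1.79, 1.59 and 1.20; all 4 were also seen in macrophage-gated barcodes, and all 12 macrophage markers tested in regulatory T cells had a positive change (median 1.03), and none passed. After subtraction of an estimated carried-over profile, which was added after seeing the data, the 4 macrophage markers that could still be tested had a median of -0.37, and Ramp1 kept its call (-2.06, edgeR adjusted p = 0.0175). Lower in KO without passing were also Ttn (-1.32), Pcsk1, a prohormone convertase (-1.84), Lnpep (-0.96) and Cd209a, a dendritic cell lectin with 25 UMIs in WT, from 1 cell in each library, and 0 UMIs in KO (at least 9.48-fold lower over the KO cells, against a floor of 3 counts).

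**Figure D4:**
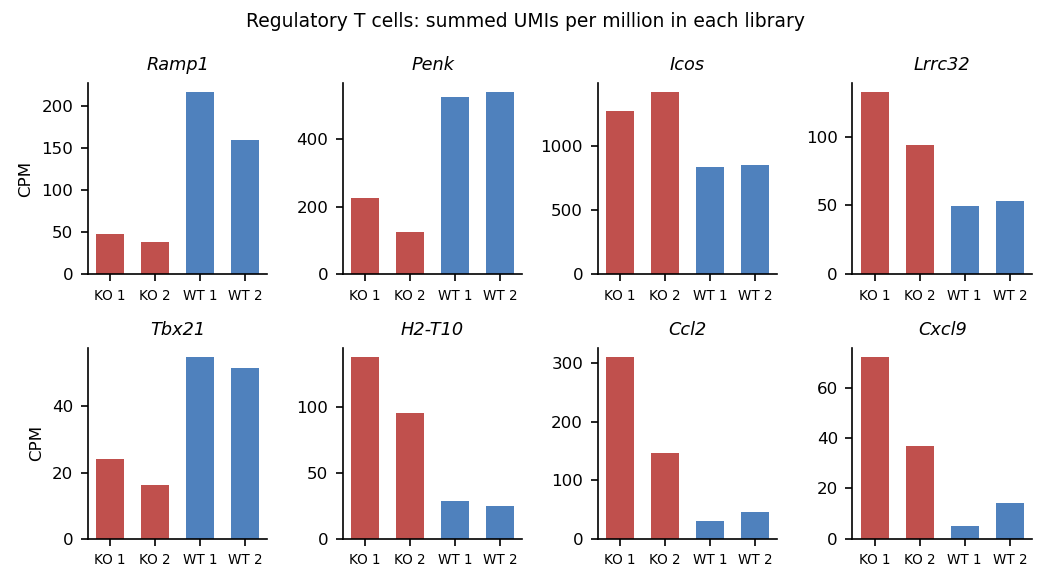
CPM of 8 genes in the summed regulatory T cells of each library, KO in red and WT in blue, each panel with its own axis from 0. Ramp1 is the gene that passed the test; Penk and Tbx21 are also lower, and Icos, Lrrc32, H2-T10, Ccl2 and Cxcl9 higher, in both KO libraries, without passing.

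The markers of regulatory T cells gave no call between the genotypes. Il2ra had 704 and 711 CPM in KO and 851 and 493 CPM in WT (0.10 ± 0.21), and the groups overlapped. Ikzf2 (0.20 ± 0.14) and Tnfrsf4 (0.35 ± 0.14) were higher in both KO libraries than in both WT libraries, which 15.6% of all tested genes were; 18.8% were lower in both. Among the identity genes 4 of 12 tested were above WT in both KO libraries and 4 below. Icos had 1276 and 1424 CPM in KO and 838 and 850.2 CPM in WT (0.69 ± 0.14, edgeR adjusted p = 0.193), with no overlap. Lrrc32 had 132 and 93.7 CPM in KO and 49.6 and 53.4 CPM in WT (1.14 ± 0.28, edgeR adjusted p = 0.364), also with no overlap, and Itgb8 had 152 and 106 CPM in KO and 94.0 and 53.4 CPM in WT. Icos and Lrrc32 were singled out after their values were seen. Of the 14 tested mediators of suppression 11 had a positive change and 6 did not overlap upward (median 0.29); Gzmb (1420.1 and 2261 CPM in KO, 1306 and 1592 CPM in WT) and Areg overlapped. Of 12 tested chemokine and migration receptors 1, Ccr2, lay above WT in both KO libraries, with 604 and 595 CPM in KO and 577 and 505 CPM in WT, and none lay below.

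Several response lists leaned 1 way between the genotypes although no member passed. In the interferon gamma list 20 of 21 tested members had a positive change and 15 were higher in both KO libraries than in both WT libraries, with a median log2 change of 0.33 against -0.01 over all genes. Of all 6084 tested genes 15.6% were higher in both KO libraries and 18.8% lower, which is the background for the counts of each list here. Igtp had 325 and 479 CPM in KO and 298 and 281 CPM in WT, and Gbp5 had 106 and 79.4 CPM in KO and 47.0 and 51.3 CPM in WT. The chemokines Cxcl9 (72.2 and 36.7 CPM in KO, 5.22 and 14.4 CPM in WT) and Cxcl10 (70.2 and 59.1 CPM in KO, 7.83 and 20.5 CPM in WT) had the largest changes of the list, 2.39 and 2.11 log2 units, without passing (edgeR adjusted p = 0.292 and 0.193). In macrophage-gated barcodes Cxcl9 had 730.4 and 566 CPM in KO and 100.5 and 259 CPM in WT and Cxcl10 had 496 and 459.7 CPM in KO and 107 and 164 CPM in WT; how much of that RNA was carried into the regulatory T cell values was not tested gene by gene. After subtraction of carried-over RNA 18 of 19 tested members were positive (median 0.31). In the TNF receptor and NF-kB list 12 of 14 were positive and 8 did not overlap upward (median 0.39); Nfkbia, the inhibitor that NF-kB induces, had 1555 and 1742 CPM in KO and 1256 and 939 CPM in WT, and Relb had 94.3 and 95.7 CPM in KO and 54.8 and 57.5 CPM in WT. In the heat shock and dissociation stress list 15 of 18 were positive and 9 did not overlap upward (median 0.43), and its part in the other lists' values was not tested. Of 16 genes of MHC class I presentation 15 were positive and 7 did not overlap upward (median 0.16). The cholesterol synthesis list leaned the other way, with 9 of 10 negative, 6 not overlapping downward and a median of -0.37; Cyp51 had 26.1 and 50.9 CPM in KO and 60.1 and 67.8 CPM in WT, and Srebf2, the regulator of the pathway, had 46.1 and 63.1 CPM in KO and 125 and 88.3 CPM in WT. Tbx21 had 24.1 and 16.3 CPM in KO and 54.8 and 51.3 CPM in WT (-1.37, edgeR adjusted p = 0.454). Cell cycle genes had a median of 0.03, and of 18 mitophagy genes 7 were positive and 11 negative (median -0.09).

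Whether KO and WT differed in another way in regulatory than in conventional CD4 T cells was tested by the interaction in the same 8 sums. Of 5504 genes 3 (0.0545%) passed, Penk, Ccl5 and Tnfsf11, and in all 3 the KO effect was lower in regulatory T cells. Penk had 225 and 124 CPM in KO and 525 and 540.1 CPM in WT regulatory T cells, and 371 and 279 CPM in KO and 119 and 123 CPM in WT conventional CD4 T cells. The groups did not overlap in either gate, and the sides were opposite (difference -3.06 ± 0.34 log2 units, edgeR adjusted p = 1.4e-07). Among barcodes with no UMI of other cell types' markers the difference was -1.72 (edgeR adjusted p = 0.863). Its conventional values rest on 22 cells, 1 of which held 33.1% of the UMIs. Ccl5 (RANTES), a chemokine of effector T cells, had 425 and 265 CPM in KO and 446 and 526 CPM in WT regulatory T cells, and 1149 and 1207 CPM in KO and 325 and 645 CPM in WT conventional ones (difference -1.85 ± 0.29, edgeR adjusted p = 0.000339; 2.67 with adjusted p = 0.309 among barcodes with no UMI of other cell types' markers). KO was the higher group in the conventional gate, and in macrophage-gated barcodes (586 and 263 CPM in KO, 27.1 and 78.0 CPM in WT). Tnfsf11 (RANK ligand), a cytokine of the TNF family, had 2.01 and 0 CPM in KO and 18.3 and 34.9 CPM in WT regulatory T cells, and 154 and 103 CPM in KO and 71.4 and 109 CPM in WT conventional ones (difference -4.81 ± 0.96, edgeR adjusted p = 0.0192). It was seen in 17 regulatory T cells, 1 of them in KO. Its call ended with DESeq2, without KO 2 (adjusted p = 0.0639), with Foxp3 at 2 UMIs or more (0.0633) and with a Cd4 UMI required (0.0588). For Ramp1 the interaction did not pass (-1.53 ± 0.51, edgeR adjusted p = 0.574), with 82.9 and 84.9 CPM in KO and 63.5 and 181 CPM in WT conventional cells.

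**Figure D5:**
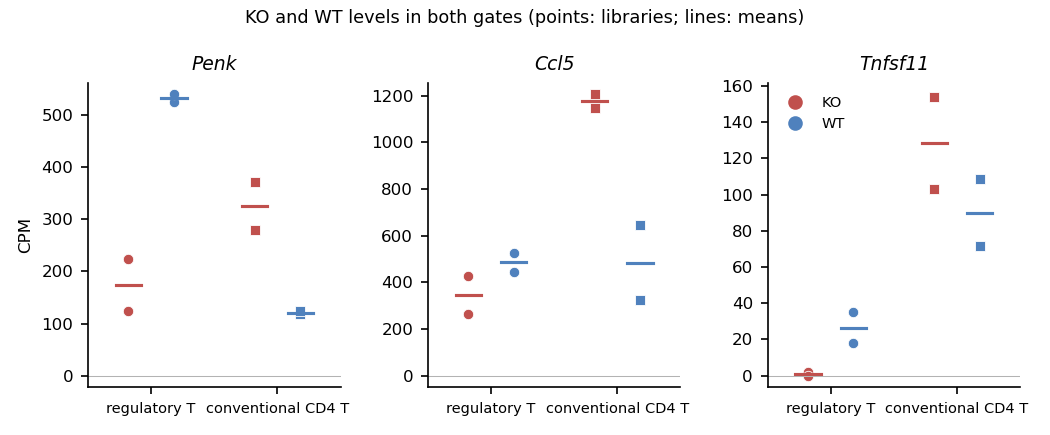
CPM of Penk, Ccl5 and Tnfsf11 in regulatory T cells (left in each panel) and conventional CD4 T cells (right), KO in red and WT in blue, 1 point per library with lines at the means. KO lies below WT for all 3 genes in regulatory T cells and above WT for Penk and Ccl5 in conventional CD4 T cells.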

How the data were processed

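The authors deposited raw UMI counts for each gene in each barcode of 4 libraries. Per the file headers they came from Cell Ranger 5.0.0; the notes on processing that the submitters gave name version 5.0.1, mm10 and Seurat 3.15. Libraries were made with a 10x 3' kit, per the labels' protocols. The members, the conventional CD4 gate and the gene lists were chosen with earlier results of these data known. Because cells are not replicates, UMIs were summed within each library and gate. The sums were compared with edgeR 4.0.16 (R 4.3.3), using filterByExpr, TMM scaling, a robust quasi-likelihood fit, two-sided tests and Benjamini-Hochberg adjustment over all genes tested; an SE is the absolute log2 change over the square root of F. The tests were tried on simulated data first, with changes put into well-counted genes and a spread set in advance. Changes of 1 log2 unit were recovered for 20% of genes between KO and WT, 42.9% between the gates and 2.02% in the interaction. At 2 log2 units these were 87%, 95.9% and 33%. A gene that did not pass can thus still differ. No doublet caller was run; the gates leave out barcodes with a Cd8a, Cd8b1, Csf1r or Adgre1 UMI, but not those with UMIs of other macrophage genes. Binomial intervals are exact (95%), cover counting error only, and the shares were compared by exact permutation. Coordinates are from GENCODE. Alternatives were DESeq2 1.42.0, other gates, filters and scaling, leaving out each library, and subtraction of carried-over RNA in proportion to C1qa, C1qb and C1qc, added after seeing the data. Named genes were the largest called changes, the lowest p-values where fewer than 5 genes passed, called list members, label markers, chemokine receptors and mediators of suppression; others were singled out after their values were seen. The targeted gene and some list members are not reported here.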

Additional observations from a re-analysis of the deposited data

Results flagged for a closer look

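The results for 3 genes stood out because the KO effect differed between regulatory and conventional CD4 T cells by the test of the interaction (edgeR's quasi-likelihood test). For Penk the log2 difference of the KO effects was -3.06, for Ccl5 -1.85 and for Tnfsf11 -4.81. Penk was called with each library left out, but not among barcodes with no UMI of other cell types' markers (-1.72, edgeR adjusted p = 0.863). Tnfsf11 was not called without KO 2, with Foxp3 at 2 UMIs or more, with a Cd4 UMI required or with DESeq2.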

How the results depend on the processing

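Between KO and WT regulatory T cells 1 gene was called, and the count was 11 with Foxp3 at 2 UMIs or more, 2 with a Cd4 UMI required, 4 without the top 5% of UMIs, 3 at a mitochondrial share of at most 10%, 3 after subtraction of carried-over RNA (added after seeing the data), 6 with equal cell numbers, 68 with no filter, 4 with DESeq2 and 0 to 85 when a library was left out. A lone library of a genotype was there assumed to vary like the others. Whether replicate numbers pair the samples is not known. The difference of replicate 1 minus 2 had a correlation of -0.0986 between KO and WT over 6006 genes. Counting error in sums of few cells can hide a pairing, so this value cannot decide it. With the replicate block 17 genes were called. Between the gates 486 genes were called, against 179 with DESeq2, 15 among barcodes with no UMI of other cell types' markers (943 genes tested) and 316 to 499 when a library was left out. Of the 106 called genes that were named or listed, 27 kept the call under every alternative and 79 lost it under at least 1. The interaction gave 3 calls, against 7 with a Cd4 UMI required, 6 with no UMI of other cell types' markers, 11 with no filter and 9 to 36 when a library was left out. With no UMI of those markers the direction turned for Hsp90aa1 (-0.0016), Mki67 (-0.55) and Tubb5 (-0.90) between the gates, and for Ccl5 in the interaction (2.67); that setting left 10 and 15 KO and 44 and 30 WT regulatory T cells, and the cause was not tested. The KO minus WT share of gated T cells, -27.5 percentage points, was -19.5 with Foxp3 at 2 UMIs or more, -14.7 with a Cd4 UMI, -20.7 after thinning and -32.0 to -23.1 when a library was left out. The share of kept barcodes, -0.141 points, was -0.316 with no UMI of other cell types' markers, 0.106 after thinning and -0.272 to -0.0102 when a library was left out. Thinning also left out barcodes under 2000 UMIs, so depth and that loss cannot be told apart there, and the regulatory T cell sums of 382980 to 498550 UMIs limit what can be called for genes of low level.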
